A study of Mus musculus with 12 samples.

Results

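Ucn2, Tac1 and Gpha2 are 3 of the 18193 genes measured here in mouse skin fibroblasts, and each encodes the precursor or a subunit of a secreted peptide hormone. They were chosen from the same arrays for their values: Ucn2 and Tac1 were higher in fibroblasts of papilloma-bearing skin, and Gpha2 was lower in fibroblasts of inflamed skin. Every probe set (a group of short probes for 1 transcript) that the platform annotation paired with exactly 1 of these symbols was kept, which gave 4 of the 45037 non-control probe sets: 1 for Ucn2, 2 for Tac1 and 1 for Gpha2.

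RNA of sorted dermal fibroblasts was hybridised to Affymetrix mouse whole-genome arrays, with 12 samples in 3 groups of 4, 1 array each. The tumour-associated group (Pap) came from papilloma-bearing back skin of InvEE mice, and the inflamed group (InvEE) from back skin of InvEE mice. The normal group (WT) came from wild-type back skin. The InvEE transgene is activated MEK1, a kinase, driven by the involucrin promoter in the differentiating layers of the epidermis, so fibroblasts are not the cells in which it is driven. All 3 groups were male mice aged 7 weeks that carried a PDGFRα-H2B-eGFP allele, which marks the nuclei of cells expressing the PDGF receptor alpha, and the sort was on that fluorescence. Papilloma-bearing and inflamed skin share the transgene, so these groups differ by the papilloma and not by genotype as labelled. Whether the replicates are separate animals is not stated, and p-values therefore reflect only how far these samples scatter, part of which may be technical. In such sorted bulk samples, fewer cells that make an RNA and less of it per cell cannot be told apart.

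Urocortin 2, the product of Ucn2, belongs to the corticotropin-releasing hormone (CRH) family of stress peptides and acts through the receptor Crhr2. Tac1 encodes the tachykinin precursor from which substance P and neurokinin A are cut. Substance P acts mainly through Tacr1 and is best known in skin as a product of sensory nerve endings. Gpha2 encodes the alpha subunit of thyrostimulin, a glycoprotein hormone that pairs with the beta subunit Gphb5 and can activate the thyrotropin receptor Tshr. Peptides of the CRH and tachykinin families are made as longer precursors, and proteases, carboxypeptidases and amidating enzymes trim many of these.

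The promoters of Tac1 and Gpha2 are shown because both genes differed severalfold between the groups. The cAMP response element (CRE) was among the motifs searched because receptors for urocortin 2 and thyrostimulin signal through cAMP. The stretches are the 250 bases before the annotated start, 5′ to 3′, from RefSeq on GRCm38.p6. The table used here held an entry for 2 of the 3 genes. Tac1 lies at chr6:7554811-7555060 and Gpha2 at chr19:6226151-6226400, both on the plus strand. Capitals mark exact matches to the motifs searched on both strands, which were AP-1 (TGANTCA), the full CRE (TGACGTCA), the short CRE core TGACG that the full element contains, the E-box CACGTG and the TATA box TATAAA.
Tac1: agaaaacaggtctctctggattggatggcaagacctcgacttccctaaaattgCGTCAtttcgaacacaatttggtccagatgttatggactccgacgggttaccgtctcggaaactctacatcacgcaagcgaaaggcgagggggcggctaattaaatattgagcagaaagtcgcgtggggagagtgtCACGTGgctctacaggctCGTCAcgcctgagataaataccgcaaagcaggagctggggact
Gpha2: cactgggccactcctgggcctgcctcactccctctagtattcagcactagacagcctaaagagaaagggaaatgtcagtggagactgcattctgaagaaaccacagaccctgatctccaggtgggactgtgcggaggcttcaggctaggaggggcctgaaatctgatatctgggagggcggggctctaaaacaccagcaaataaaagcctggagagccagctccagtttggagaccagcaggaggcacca
The Tac1 stretch held the short CRE core 2 times, both in the CGTCA orientation, at 197 and 43 bases before the start, and the E-box once, at 61 bases before it. The short core was found in 17.8% of 32851 mouse promoters of the same length and the E-box in 6.02%. None of the 5 motifs was found in the Gpha2 stretch. AP-1 was found in 6.75% of all promoters, the full CRE in 1.55% and the TATA box in 12.4%. The GC content was 51.2% for Tac1 and 55.2% for Gpha2. These matches describe letters only.

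The urocortin gene had the largest spread between groups of the 3 hormones. Values are normalised log2 values, on which a difference of 1 is a doubling of the linear signal, and a level of one probe set cannot be set against that of another. The Ucn2 probe set (1450607_s_at) had 10.44, 11.17, 10.81 and 11.51 on the Pap arrays, against 6.90, 6.57, 6.0 and 7.16 on the InvEE arrays and 6.11, 5.85, 6.01 and 6.27 on the WT arrays. Every Pap array lay above every InvEE and WT array, by at least 3.28 and 4.17, while InvEE and WT overlapped. The mean was 10.98 ± 0.46 in Pap, 6.66 ± 0.50 in InvEE and 6.06 ± 0.18 in WT (SD, n = 4 each). The WT mean was dim, which here means below 6.16, under which 40% of the means of probe sets fall. The difference of Pap from WT was 4.92 ± 0.27 (SE), a 30.3-fold higher signal, and that of Pap from InvEE was 4.33 ± 0.27, or 20.0-fold. These differences chose the gene and are given as a description.

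The comparison of InvEE with WT did not itself choose Ucn2. The choice used arrays of both groups, so the p-value of this comparison is not independent of it. InvEE minus WT was 0.59 ± 0.27 (InvEE mean 6.66, WT mean 6.06), with an adjusted p of 0.313 by limma with Benjamini-Hochberg adjustment over all genes. Over all alternative settings this adjusted p lay between 0.0526 and 0.518. The unadjusted limma p was 0.0473, and the groups overlapped.

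The identity of the Ucn2 probe set rests on the platform annotation, and its parts disagree. Its symbol and gene entry are those of Ucn2, whereas the transcript accession listed for it belongs to Ucn3, urocortin 3, in RefSeq, and its name ends in the suffix used for probe sets that match several transcripts. Ucn3 has a probe set of its own (1441439_at). It had 4.56, 4.23, 4.21 and 4.85 on the Pap arrays, against 4.34, 4.00, 4.04 and 4.44 on the InvEE arrays and 4.44, 4.57, 4.25 and 4.00 on the WT arrays. All 3 groups were dim and overlapped, and Pap minus WT was 0.15 ± 0.19 (adjusted p = 0.713, limma). Which of the 2 transcripts gave the signal of the Ucn2 probe set was not tested.

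Tac1 also separated the papilloma group from the other 2, on 1 of its 2 probe sets by a wide margin. The brighter probe set (1416783_at) had 9.57, 8.81, 10.26 and 10.10 on the Pap arrays, against 5.60, 5.76, 4.70 and 4.84 on the InvEE arrays and 5.54, 5.89, 6.21 and 5.02 on the WT arrays. The lowest Pap array stood 3.05 above the highest InvEE array and 2.59 above the highest WT array, and InvEE and WT overlapped. The Pap mean was 9.69 ± 0.66, against dim means of 5.22 ± 0.53 in InvEE and 5.67 ± 0.51 in WT (SD, n = 4 each). Pap minus WT was 4.02 ± 0.36 (16.2-fold) and Pap minus InvEE 4.46 ± 0.36 (22-fold), again as a description of how the gene was chosen. Since the InvEE and WT means were dim, these sizes depend on the authors' background correction, whose method was not given.

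The other Tac1 probe set (1431883_at) had 5.57, 5.73, 5.24 and 5.83 on the Pap arrays, against 5.19, 5.06, 5.04 and 5.17 on the InvEE arrays and 4.94, 4.99, 5.18 and 5.09 on the WT arrays. It was dim in every group, and its Pap arrays were above all others by only 0.06. Its Pap minus WT difference was 0.54 ± 0.15 and its Pap minus InvEE difference 0.48 ± 0.15. The probe sets therefore had the same direction and very different sizes, and their mean gave 2.28 for Pap minus WT. InvEE minus WT did not itself choose Tac1, but the choice used arrays of both groups, so its p-value is not independent of the choice. The difference was -0.44 ± 0.36 on the brighter probe set (InvEE mean 5.22, WT mean 5.67) and 0.06 ± 0.15 on the other. On the brighter one the adjusted p was 0.557 by limma, and 0.362 to 0.770 over the alternatives.

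Gpha2 had the opposite pattern, with its high values in normal skin. Its probe set (1421497_at) had 6.42, 7.68, 7.35 and 7.93 on the Pap arrays, against 10.75, 10.10, 11.29 and 9.83 on the WT arrays. The InvEE arrays had 7.45, 7.34, 7.15 and 7.88. Every Pap and every InvEE array lay below every WT array, and Pap and InvEE overlapped. The mean was 7.35 ± 0.66 in Pap, 7.46 ± 0.31 in InvEE and 10.50 ± 0.66 in WT (SD, n = 4 each), and no group was dim. The difference that chose the gene, InvEE minus WT, was -3.04 ± 0.36, an 8.23-fold lower signal with a gap of 1.96 between the groups.

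Papilloma-bearing skin was not part of the rule for Gpha2, although its comparison with WT shares the WT arrays with the one that was. The p-value below is therefore not independent of the choice and is given as a description. Gpha2 fell to 7.35 in Pap, against 10.50 in WT, a difference of -3.15 ± 0.36 or 8.87-fold lower, with an adjusted p of 0.000228 by limma. It was lower on 4 of 4 Pap arrays, and over the alternatives the adjusted p lay between 8.62e-05 and 0.00256. Pap minus InvEE was -0.11 ± 0.36 and the arrays overlapped.

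**Figure D1:**
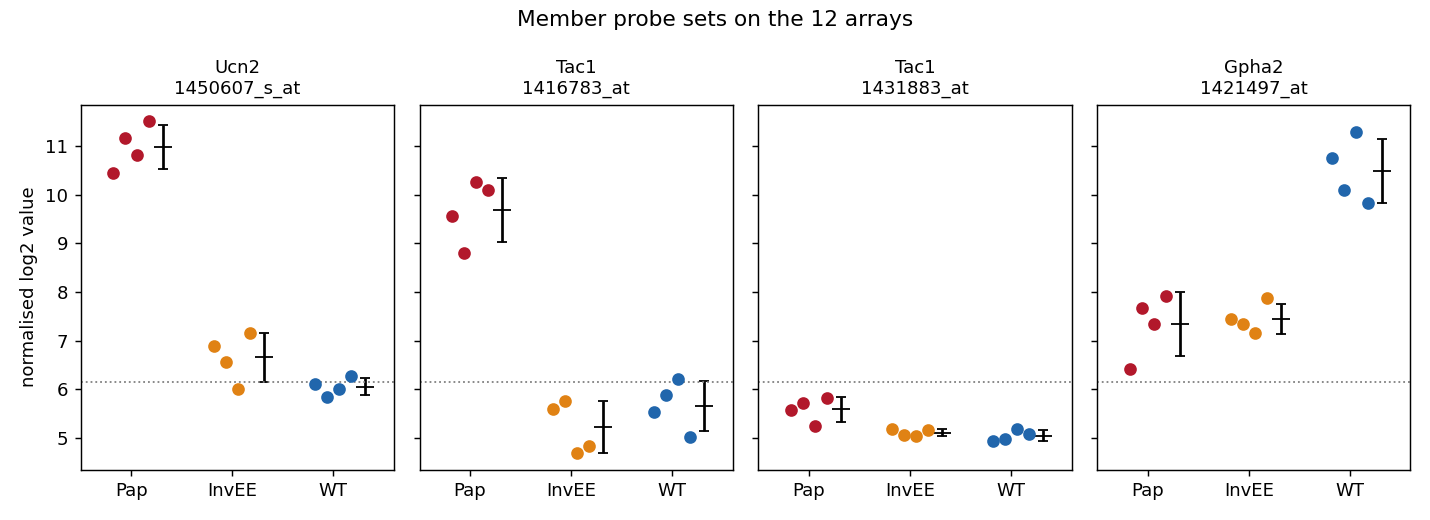
Normalised log2 values (vertical axis) of the 4 probe sets on the 12 arrays, 1 point per array, for Pap, InvEE and WT from left to right, with the group mean and SD beside the points and the dim limit of 6.16 as a dotted line. Ucn2 and the brighter Tac1 probe set stand apart in Pap (means 10.98 and 9.69), the dimmer Tac1 probe set spans a narrow range, and Gpha2 is high in WT (10.50).

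Against these separations stands the background of all genes. At an adjusted p under 0.05 in limma, 9.65% of the 18193 genes were called in Pap minus WT, 4.85% of them as higher and 4.8% as lower. In InvEE minus WT 0.533% were called, 0.258% as higher and 0.275% as lower, and in Pap minus InvEE 6.71%, 3.67% as higher and 3.04% as lower. Groups that do not overlap were more frequent: Pap lay wholly above WT in 7.22% of genes and wholly below it in 6.56%, InvEE wholly above WT in 5.07% and wholly below it in 10.2%, and Pap wholly above InvEE in 14.5%. The members were picked from this background by their values, so nothing is read from their own place in it.

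The papilloma signal of Ucn2 had a counterpart in the gene next to it. In the RefSeq gene order of chromosome 9, Col7a1, the type VII collagen of the anchoring fibrils that fix epidermis to dermis, is the direct neighbour of Ucn2. Col7a1 (1419613_at) had 13.09, 13.08, 12.75 and 13.37 on the Pap arrays, against 8.88, 9.57, 8.28 and 9.20 on the InvEE arrays and 8.68, 8.30, 8.47 and 8.18 on the WT arrays. As for Ucn2, Pap lay above both other groups with no overlap. Pap minus WT was 4.66 ± 0.25 for Col7a1, beside 4.92 ± 0.27 for Ucn2. The other 4 measured genes near Ucn2 had Pap minus WT differences of -0.61 ± 0.23 (Shisa5), -0.28 ± 0.26 (Pfkfb4, a regulator of glycolysis), 0.08 ± 0.19 (Uqcrc1, a subunit of the respiratory chain) and 0.05 ± 0.21 (Tmem89). Neighbouring genes were looked at after their values had been seen, so no test is attached to them, and whether RNA or probes of Col7a1 contribute to the Ucn2 signal was not tested.

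Near Tac1 on chromosome 6 the values were small by comparison. Asns, the asparagine synthetase gene that lies directly beside Tac1, had a Pap minus WT difference of 1.36 ± 0.29 and a Pap minus InvEE difference of 1.17 ± 0.29. Sdhaf3, an assembly factor of succinate dehydrogenase on the other side, had -1.24 ± 0.39 for Pap minus WT. The homeobox genes Dlx5 and Dlx6 had 0.04 ± 0.19 and -0.23 ± 0.18, and C1galt1, an enzyme of O-glycan synthesis, -0.43 ± 0.36. The 6 measured genes around Gpha2 on chromosome 19 lay between -0.58 (Batf2) and 0.38 (Ehd1) for InvEE minus WT, beside -3.04 for Gpha2.

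**Figure D2:**
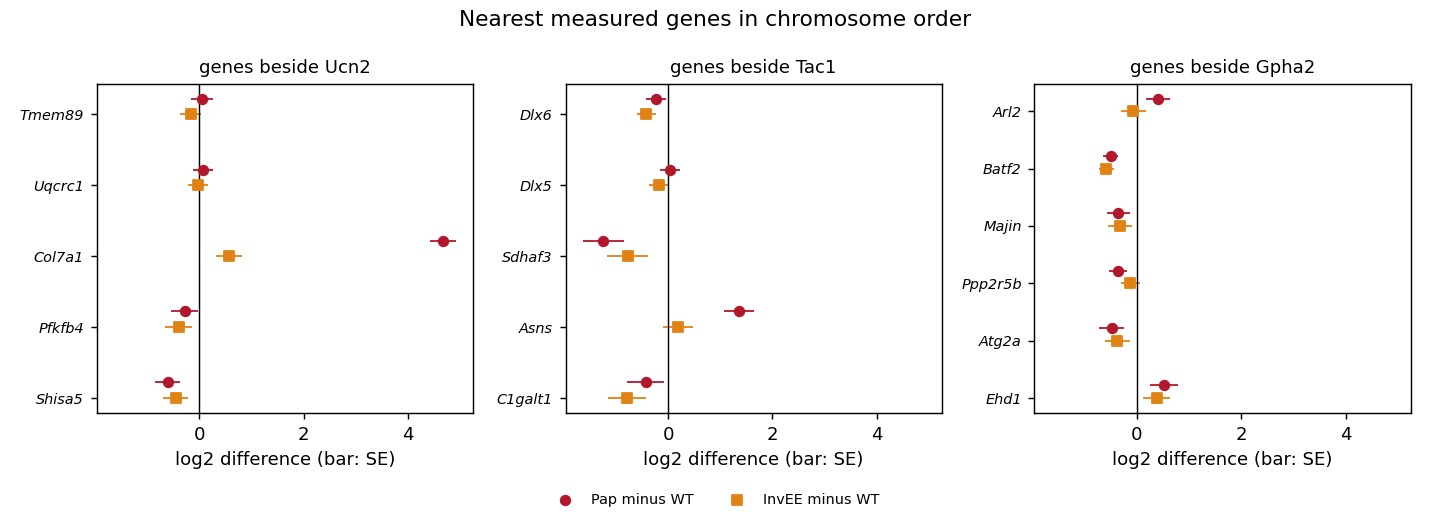
Log2 differences (horizontal axis, bar SE) of the measured genes among the nearest 3 on each side of Ucn2, Tac1 and Gpha2 in chromosome order, with circles for Pap minus WT and squares for InvEE minus WT. Col7a1 stands at 4.66 and Asns at 1.36 in Pap minus WT, and the genes around Gpha2 stay between -0.58 and 0.52 in both comparisons.

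Genes with the most similar profiles were ranked by the root mean square (RMS) difference over the 12 arrays between log2 profiles, each centred on its own mean. For Ucn2 the nearest of the other 18192 genes was Col7a1, with an RMS of 0.354. It was followed by Bnc2, a zinc finger gene, with 0.537, Pla1a, a phospholipase gene, with 0.576, Col12a1, a fibril-associated collagen, with 0.610, and Thbs1, the matricellular protein thrombospondin 1, with 0.642. Their Pap minus WT differences were 4.66 ± 0.25 for Col7a1, 4.55 ± 0.29 for Bnc2, 5.37 ± 0.37 for Pla1a, 6.02 ± 0.15 for Col12a1 and 4.01 ± 0.21 for Thbs1. All of these genes stood high on the 4 Pap arrays. Tac1 had Col7a1 nearest as well (RMS 0.650), then Mical2, an actin-oxidising enzyme (0.669), Spats2l (0.669), Thbs1 (0.725) and Brinp3 (0.736). Their Pap minus WT differences lay between 3.60 (Brinp3) and 4.66 (Col7a1). Ucn2 and Tac1 differed from each other by an RMS of 0.762, which made Ucn2 the gene ranked 6 for Tac1 and Tac1 the gene ranked 12 for Ucn2. Both were chosen for high values on these same Pap arrays, so their likeness follows from the choice and is only a description.

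For Gpha2 the nearest profiles were further away. They were Gng13, a G protein gamma subunit (RMS 0.754), Vstm2a (0.767), Adcy1, an adenylate cyclase (0.785), Adgrg2, an adhesion G protein-coupled receptor (0.789), and Plin4, a lipid droplet coat protein (0.820). InvEE minus WT was -2.65 ± 0.44 for Gng13, -2.04 ± 0.52 for Vstm2a, -1.78 ± 0.23 for Adcy1, -2.31 ± 0.39 for Adgrg2 and -1.97 ± 0.29 for Plin4, beside -3.04 ± 0.36 for Gpha2. All were lower in InvEE than in WT by less than Gpha2. Adgrg2 also had a Pap minus InvEE difference of -1.01 ± 0.39, where Gpha2 had -0.11 ± 0.36.

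**Figure D3:**
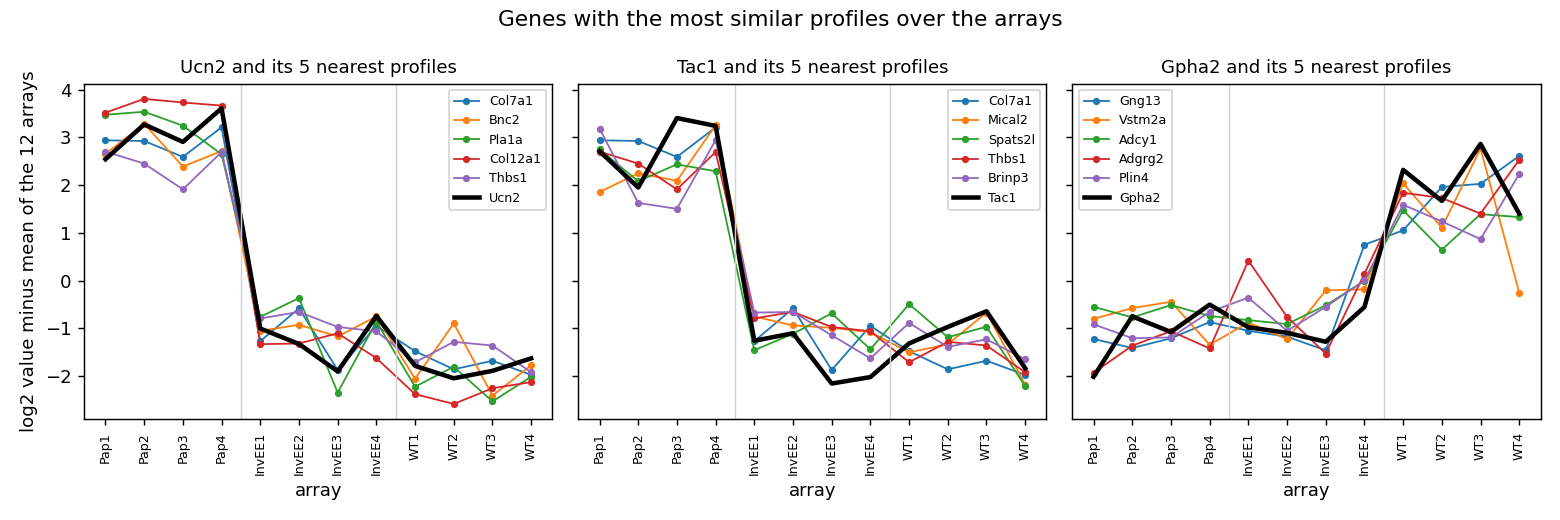
Log2 value minus the mean of the 12 arrays (vertical axis) on each array, Pap, InvEE and WT from left to right, for each hormone gene (thick black line) and its 5 nearest genes. Around Ucn2 and Tac1 the lines are high on the 4 Pap arrays, and around Gpha2 they are high on the WT arrays except for Vstm2a on WT array 4, with RMS distances of 0.354 to 0.820.

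Among the genes of the 3 hormone families, 1 call was made in all. The shares of all genes called were 9.65% in Pap minus WT, 0.533% in InvEE minus WT and 6.71% in Pap minus InvEE. At such shares a count of 0 in a family this small says little. Of the 6 other genes of the CRH family (ligands, binding protein and receptors), 0 were called in each of the 3 comparisons by limma. At an unadjusted p under 0.05 there were 0 in Pap minus WT, 1 in InvEE minus WT and 2 in Pap minus InvEE. Crh, the founding peptide of the family, had a Pap minus WT difference of 0.14 ± 0.15 and Ucn, urocortin, -0.17 ± 0.17. Crhbp, the binding protein that sequesters CRH and urocortin, had 0.46 ± 0.25 for Pap minus WT and 0.71 ± 0.25 for Pap minus InvEE (adjusted p = 0.112, limma), with 7.47 on Pap array 4 and 6.15 to 6.56 on the other Pap arrays.

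The receptor for urocortin 2, Crhr2, had 6.04, 6.34, 5.69 and 6.05 on the Pap arrays, against 6.08, 5.64, 6.82 and 5.72 on the InvEE arrays and 5.72, 5.64, 5.62 and 5.92 on the WT arrays. All 3 group means were dim, the groups overlapped, and Pap minus WT was 0.30 ± 0.24 (adjusted p = 0.526, limma). Crhr1, the CRH receptor, had 6.73, 6.49, 6.45 and 6.83 on the Pap arrays, against 6.65, 6.63, 6.45 and 6.99 on the WT arrays, a difference of -0.06 ± 0.15. Its InvEE arrays, at 6.17 to 6.36, lay below all arrays of both other groups.

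In the tachykinin family 0 of the 5 other genes were called in any comparison by limma, with 0, 2 and 1 at an unadjusted p under 0.05 in Pap minus WT, InvEE minus WT and Pap minus InvEE. Tacr1, the receptor for substance P, had 6.92, 6.52, 6.53 and 6.96 on the Pap arrays, against 6.68, 6.70, 6.81 and 7.34 on the WT arrays. Its InvEE arrays had 6.94, 6.89, 6.90 and 6.59, and all 3 groups overlapped. Pap minus WT was -0.15 ± 0.18 for Tacr1, -0.15 ± 0.14 for Tacr2, which prefers neurokinin A, and -0.05 ± 0.15 for Tacr3, which prefers neurokinin B. The remaining precursors, Tac2 for neurokinin B and Tac4 for hemokinin, had 0.18 ± 0.21 and 0.20 ± 0.15.

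Of the glycoprotein hormone family 6 of 8 genes were measured, and the partner subunit Gphb5 and the receptor Lhcgr were not analysed here. None of the 6 was called against WT by limma, with 1 at an unadjusted p under 0.05 in Pap minus WT and 2 in InvEE minus WT. Cga, the common alpha subunit of the pituitary hormones, had 0.50 ± 0.22 for Pap minus WT (adjusted p = 0.193, limma). The beta subunit genes Tshb, Fshb and Lhb had -0.02 ± 0.16, 0.00 ± 0.18 and 0.03 ± 0.14. Tshr, the receptor that thyrostimulin can activate, was dim in all groups, with 5.59 to 5.92 in Pap, 5.50 to 5.62 in InvEE and 5.47 to 5.98 in WT. Fshr, the follitropin receptor, was called in Pap minus InvEE (0.55 ± 0.12, adjusted p = 0.0207, limma), with all groups dim. That call was lost without InvEE array 1, 2 or 4.

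**Figure D4:**
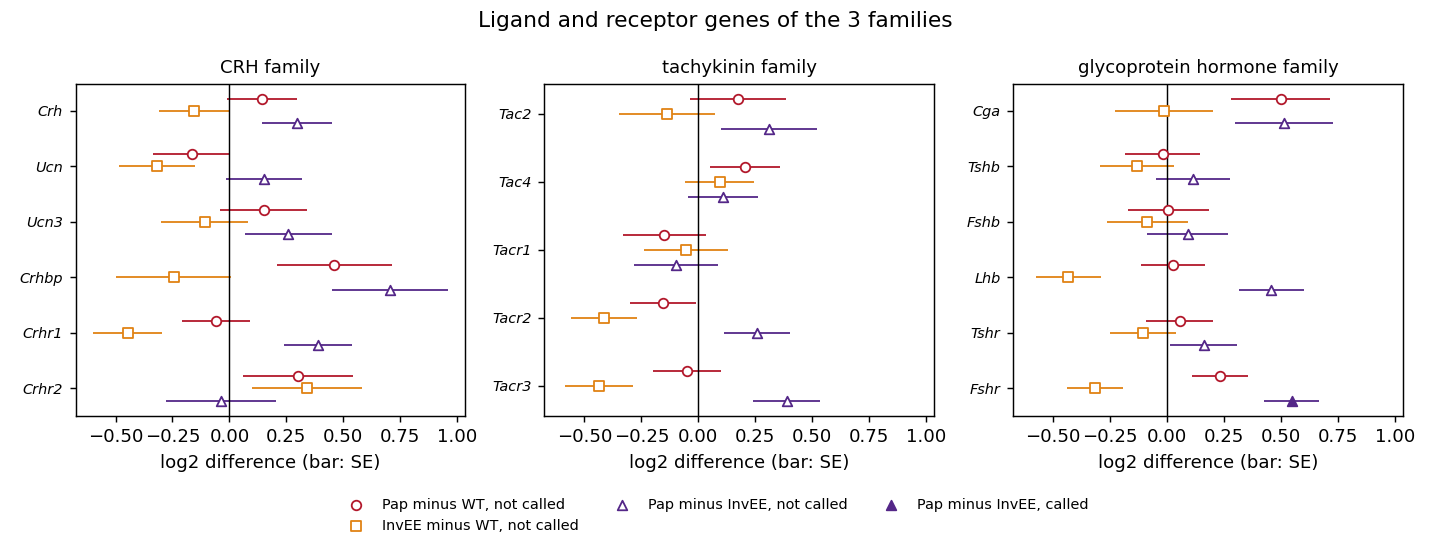
Log2 differences (horizontal axis, bar SE) of the CRH, tachykinin and glycoprotein hormone family genes for Pap minus WT (circles), InvEE minus WT (squares) and Pap minus InvEE (triangles), filled where limma called the gene. Fshr in Pap minus InvEE (0.55) is the only filled mark, and no mark passes 0.71.

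Of the wider peptide hormone genes, a minority was called in papilloma-bearing skin, and more of those calls were lower than higher against WT. The lists of families, processing enzymes, granins, peptidases, other hormones, receptors and cAMP-responsive genes had 144 members, of which 129 were measured. In Pap minus WT 22 of the 129 (17.1%) were called, 6 higher and 16 lower, beside 9.65% of all genes, and the median difference was 0.03, beside 0.04 for all genes. In Pap minus InvEE 14 (10.9%) were called, 6 higher and 8 lower, beside 6.71% of all genes, with medians of 0.16 and 0.12. In InvEE minus WT limma called 0 of 129, beside 0.533% of all genes, with 32 at an unadjusted p under 0.05 and medians of -0.15 and -0.09. Weighting the arrays by quality raised that 0 to 9, and averaging the probe sets of a gene to 1. The lists were drawn up with earlier results of these arrays known, so the shares are descriptions. Leaving out any 1 array kept 10 of the 22 calls and 8 of the 14.

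Most of the Pap minus InvEE calls were lost when the spike-in level entered the fit. With the mean of the poly-A spike probe sets as a covariate, 2 of the 14 were still called (Inhbb and Fos). The standard errors were wider in that fit, and several differences stayed about as large: Mc5r had -3.59 ± 0.81 with the covariate, beside -3.44 ± 0.46 without it, Cpe 2.23 ± 0.48, beside 1.75 ± 0.30, and Pam 1.00 ± 0.23, beside 1.03 ± 0.15. Others were smaller with it, such as Npr2 at -0.77 ± 0.29, beside -1.31 ± 0.21. The spike-in level itself, which reports RNA added at processing, was 10.96 ± 1.14 in Pap, 8.12 ± 0.35 in InvEE and 10.51 ± 1.26 in WT (SD, n = 4 each), so this covariate varies with the group. By array it was 10.98, 10.56, 9.78 and 12.50 in Pap, 8.60, 8.09, 8.04 and 7.76 in InvEE and 10.33, 10.22, 9.24 and 12.24 in WT. Arrays 1 to 4 had the same order in Pap and WT, highest on array 4 and lowest on array 3, and another order in InvEE. Whether the numbers mark shared processing is not stated.

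Among 11 measured enzymes that process prohormones, 3 rose and 2 fell in Pap minus WT (45.5%, beside 9.65% of all genes). Cpe, carboxypeptidase E, which trims basic residues from peptide precursors, had 12.66, 12.59, 12.48 and 13.14 on the Pap arrays, against 10.89, 11.24, 10.63 and 11.10 on the InvEE arrays and 10.57, 10.80, 10.82 and 9.39 on the WT arrays. Every Pap array was above all others, and Pap minus WT was 2.32 ± 0.30 (adjusted p = 0.000445, limma). Without WT array 4, the low one, it was 1.99. Pam, which amidates the C-terminus of peptides such as substance P, had 12.17, 12.46, 12.44 and 12.24 on the Pap arrays, against 11.23, 11.39, 11.07 and 11.51 on the InvEE arrays and 11.75, 11.65, 11.63 and 11.94 on the WT arrays. Here too every Pap array was above all others. Pap minus InvEE was 1.03 ± 0.15 (adjusted p = 0.00154, limma) and Pap minus WT 0.59 ± 0.15 (adjusted p = 0.0246). The call against WT was lost without Pap array 2 or 3 or WT array 1, 2 or 3, at 0.54 to 0.59.

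Pcsk5, a proprotein convertase, had a Pap minus WT difference of 1.03 ± 0.25 (adjusted p = 0.0210, limma), which was lost without Pap array 3 or WT array 3. Its 4 other probe sets ranged between 0.27 and 1.42, and 1 of them was called. Qpct, which forms N-terminal pyroglutamate, fell by 2.06 ± 0.42 (adjusted p = 0.00933), with Pap array 4 at 7.35 and the other Pap arrays at 9.25 to 9.37. Cpd, a carboxypeptidase of the secretory pathway, had -0.53 ± 0.14 (adjusted p = 0.0348), a call kept in 9 of 23 alternatives, and none of its 6 other probe sets was called. Furin, a ubiquitous convertase, stood at 10.43 to 10.55 in Pap, against 9.55 to 10.29 in WT, and its difference of 0.68 ± 0.25 was not called (adjusted p = 0.124, limma). Of 5 granins, proteins of dense-core vesicles, 0 were called against WT by limma. The shares of all genes called were 9.65% in Pap minus WT and 0.533% in InvEE minus WT. At an unadjusted limma p under 0.05 there was 1 granin in each of these comparisons. Scg2, secretogranin II, had 0.56 ± 0.13 for Pap minus InvEE (adjusted p = 0.0290), dim in all groups, with the call kept in 15 of 22 alternatives.

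Of 10 measured peptidases that can degrade peptide hormones, 2 fell in Pap minus WT and 0 rose (20%, beside 9.65% of all genes). Dpp4, which cuts N-terminal dipeptides and marks fibroblast subsets, had 8.61, 9.60, 9.01 and 6.87 on the Pap arrays, against 10.57, 10.53, 10.59 and 10.33 on the WT arrays. Its Pap and WT arrays did not overlap, and the difference was -1.98 ± 0.46 (adjusted p = 0.0187, limma), or -1.44 without Pap array 4. Its InvEE arrays, at 8.81 to 9.91, overlapped those of Pap and also lay below all WT arrays. InvEE minus WT was -1.01 and was not called. Anpep, aminopeptidase N, had -1.25 ± 0.31 (adjusted p = 0.0246), lost without WT array 1 or 4. Ece1 and Ace, the endothelin- and angiotensin-converting enzymes, had -0.22 ± 0.17 and -0.57 ± 0.38 and were not called.

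Of 55 other measured peptide hormone genes, 2 rose and 3 fell in Pap minus WT. That is 9.09%, close to the 9.65% of all genes, so the count says nothing particular about these genes. Inhbb, the beta B subunit of activin and inhibin, had 11.34, 10.86, 10.67 and 11 on the Pap arrays, against 8.95, 9.16, 9.02 and 9.42 on the InvEE arrays and 9.33, 8.66, 9.59 and 6.78 on the WT arrays. Pap lay above both other groups, by 2.38 ± 0.48 over WT (adjusted p = 0.00827, limma). That difference was 1.77 without WT array 4, and the other Inhbb probe set had 1.21 and was called as well. Stc1, stanniocalcin 1, a hormone of calcium and phosphate balance in fish, had 1.78 ± 0.38 (adjusted p = 0.0119), while its other probe set had 0.15 and was not called.

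Penk, the precursor of the enkephalin opioid peptides, had 8.77, 10.10, 11.31 and 9.52 on the Pap arrays, against 11.85, 11.96, 11.88 and 11.85 on the WT arrays. The Pap arrays were all lower and far more spread, and Penk fell by 1.96 ± 0.43 (adjusted p = 0.0128, limma). Gal, galanin, had -1.40 ± 0.36 (adjusted p = 0.0299), a call kept in 15 of 23 alternatives. Nmb, neuromedin B, had -2.03 ± 0.53 (adjusted p = 0.0319), lost without Pap array 1 or 4 or WT array 2 or 3. Adm, the vasodilator adrenomedullin, and Nucb2, the nesfatin precursor, were named for their bright probe sets and were not called, at 0.68 ± 0.38 and -0.61 ± 0.22 for Pap minus WT.

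Receptor genes for other peptides fell in 5 of 19 cases in Pap minus WT, and 0 rose (26.3%, beside 9.65% of all genes). Npr2, the receptor for C-type natriuretic peptide, had 9.40, 9.39, 9.75 and 8.67 on the Pap arrays, against 10.79, 10.54, 10.55 and 10.55 on the InvEE arrays and 10.91, 10.92, 10.59 and 10.52 on the WT arrays. Pap lay below both other groups, with -1.43 ± 0.21 against WT (adjusted p = 0.00122, limma) and -1.31 ± 0.21 against InvEE (adjusted p = 0.00352). Agtr1a, an angiotensin II receptor, had -1.82 ± 0.44 (adjusted p = 0.0232), lost without Pap array 1 or WT array 2. Calcrl, the receptor component for adrenomedullin and CGRP, had 4.11, 7.34, 6.59 and 3.31 on the Pap arrays, against 7.82, 8.03, 8.33 and 7.79 on the WT arrays. Its difference of -2.65 ± 0.70 (adjusted p = 0.0331) was -3.32 without Pap array 2 and -1.98 without Pap array 4, and the call was kept in 16 of 23 alternatives. Adcyap1r1, the receptor for the peptide PACAP, had -1.34 ± 0.37 (adjusted p = 0.0394), a call kept in 11 of 23 alternatives, and both of its other probe sets were called. Ramp2, a partner of Calcrl, and Pth1r, the receptor for parathyroid hormone, were not called, at -0.88 ± 0.65 and -0.44 ± 0.30.

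Mc5r, a melanocortin receptor, had the widest difference between papilloma-bearing and inflamed skin on the lists. It had 5.99, 5.27, 5.27 and 5.98 on the Pap arrays, against 9.23, 8.79, 10.38 and 7.85 on the InvEE arrays and 7.61, 7.90, 7.03 and 6.63 on the WT arrays. The Pap arrays were lowest and the Pap mean was dim. Pap minus InvEE was -3.44 ± 0.46 (adjusted p = 0.000994, limma), and Pap minus WT was -1.67 ± 0.46 (adjusted p = 0.0396), a call kept in 12 of 23 alternatives. The InvEE arrays overlapped those of WT, with a difference of 1.77 ± 0.46 (adjusted p = 0.110). Pap minus InvEE was also called for Vipr2, a receptor for VIP (-2.91 ± 0.64, and -0.60 with the spike covariate, under which Mc5r had -3.59), Ednrb, an endothelin receptor (-1.59 ± 0.32), and Npy1r, a neuropeptide Y receptor (-1.37 ± 0.31), which was dim in all 3 groups and whose call was kept in 15 of 22 alternatives.

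Receptors for urocortin 2 and thyrostimulin act through cAMP, so genes known to respond to it were listed. In Pap minus WT 4 of 12 fell and 1 rose (41.7%, beside 9.65% of all genes). The median difference of the whole list was 0.03, beside 0.04 for all genes. Of those not called, Nr4a2 (mean 9.63 in Pap, against 7.95 in WT), Rgs2 (10.14, against 9.51), Nr4a1, Nr4a3 and Crem were higher in Pap. Pde4b and Dusp1, also not called, were lower in Pap. Fos, the immediate early transcription factor, had 11.39, 11.55, 11.49 and 11.89 on the Pap arrays, against 13.22, 13.15, 13.00 and 13.36 on the InvEE arrays and 13.17, 12.83, 13.14 and 12.63 on the WT arrays. All Pap arrays were below all others, with -1.36 ± 0.17 against WT (adjusted p = 0.000348, limma) and -1.60 ± 0.17 against InvEE. Sik1, a salt-inducible kinase, fell, with -1.41 ± 0.26 against WT (adjusted p = 0.00446) and -1.44 ± 0.26 against InvEE. Per1, a clock gene, fell by 1.72 ± 0.32 (adjusted p = 0.00542). Gem, a small GTPase, had -1.33 ± 0.38 against WT (adjusted p = 0.0440), a call kept in 7 of 23 alternatives, and -1.81 ± 0.38 against InvEE. Pde4d, which breaks down cAMP, rose by 1.05 ± 0.27 (adjusted p = 0.0272), lost without Pap array 3 or 4 or WT array 1 or 2, and its other probe set had 0.24.

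**Figure D5:**
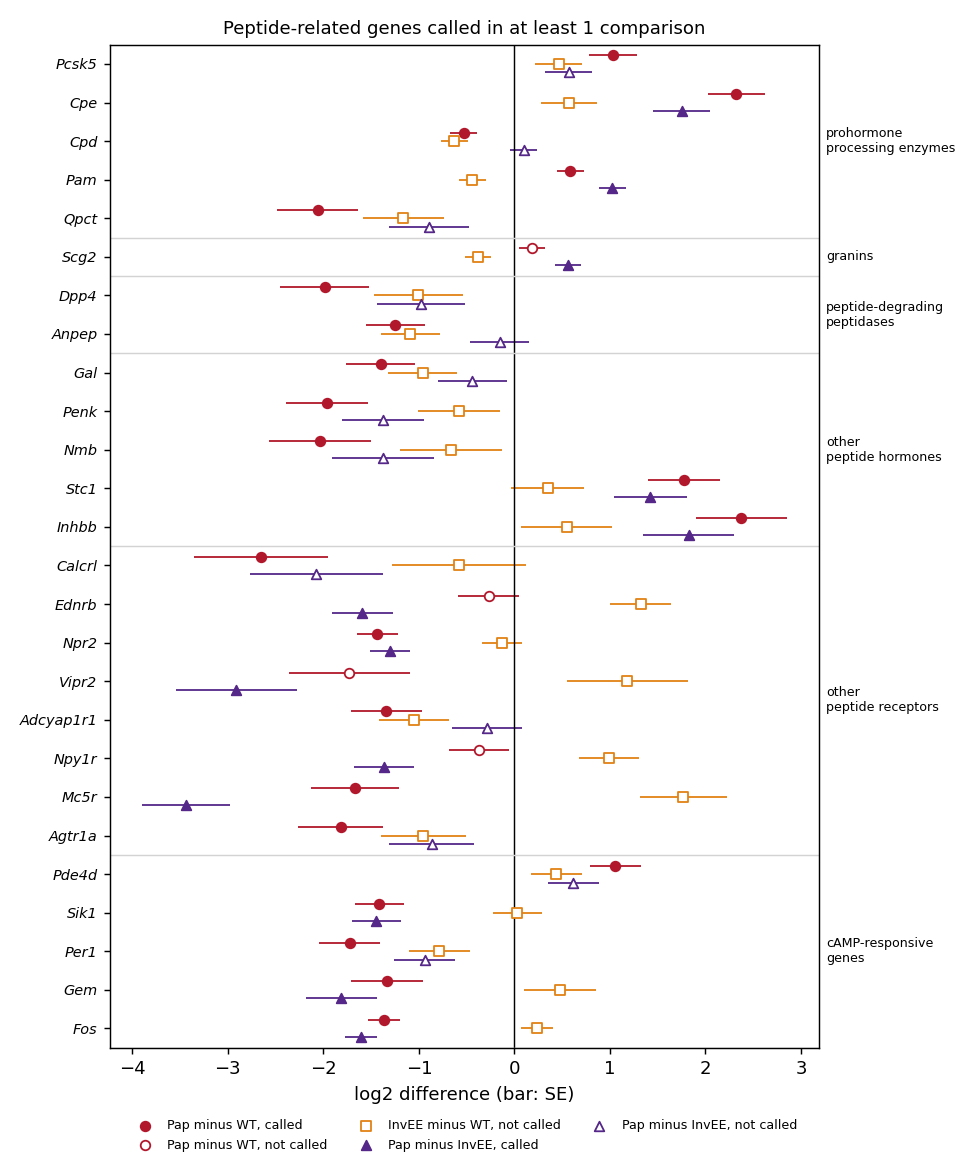
Log2 differences (horizontal axis, bar SE) of the processing, granin, peptidase, hormone, receptor and cAMP-responsive genes called in at least 1 comparison, with circles for Pap minus WT, squares for InvEE minus WT and triangles for Pap minus InvEE, filled where limma called the gene. Inhbb (2.38) and Cpe (2.32) stand furthest right in Pap minus WT, Mc5r (-3.44) furthest left in Pap minus InvEE, and no square is filled.

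Markers of the sorted cells and of other skin cells were read on the same arrays. All 6 fibroblast markers were bright in every group, with a mean level of 13.13 to 13.25 on Pap arrays, 12.83 to 13.06 on InvEE arrays and 12.91 to 13.08 on WT arrays. Pdgfra, the gene behind the sort, was called higher in Pap minus WT (0.93 ± 0.25, adjusted p = 0.0349 by limma), a call kept in 14 of 23 alternatives. Of 8 sensory neuron markers 0 were called in any comparison by limma. The shares of all genes called were 9.65% in Pap minus WT, 0.533% in InvEE minus WT and 6.71% in Pap minus InvEE. With so few markers, a count of 0 at such shares says little about nerve RNA. At an unadjusted limma p under 0.05 there were 0, 2 and 2 markers in these comparisons. Of the markers, 6 were dim in Pap, 7 in InvEE and 6 in WT. Their log2 summed signal was 8.56 to 9.12 in Pap, 8.35 to 8.60 in InvEE and 8.55 to 8.96 in WT, a sum that includes the dim markers. The part of nerve RNA in the Tac1 result was not tested. The nociceptor channels Scn10a and Trpv1 were dim in all 3 groups.

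The log2 summed signal of keratinocyte markers was 10.33 to 12.25 in Pap, 11.48 to 12.70 in InvEE and 10.05 to 10.40 in WT, with InvEE wholly above WT and Pap overlapping both. Of 9 such markers 2 were called higher in Pap minus WT (Krt14 2.38 ± 0.58 and Dsp 3.11 ± 0.81) and 2 in InvEE minus WT (Krt15 1.89 ± 0.27 and Perp 3.50 ± 0.68). That is 22.2% in each, beside 9.65% and 0.533% of all genes. At an unadjusted limma p under 0.05 there were 3 in Pap minus WT and 8 in InvEE minus WT, with median differences of 0.61 and 1.89. The Dsp call was lost without Pap array 3 or 4 or WT array 2, 3 or 4, and the Krt14 call without WT array 1. The Perp call was kept in 9 of 23 alternatives and the Krt15 call in 18. Epcam went the other way in both comparisons with WT, with a mean of 6.43 in Pap and 6.89 in InvEE, against 6.98 in WT. Krt10 and Krt15 were lower than WT in Pap alone, at 8.43 and 6.27, against 8.63 and 6.54 in WT. Pericyte markers summed to 9.56 to 10.29 in Pap, 10.46 to 10.98 in InvEE and 11.56 to 11.85 in WT, with Kcnj8 at -4.01 ± 0.27 for Pap minus WT and -1.86 ± 0.27 for InvEE minus WT. Macrophage markers summed to 10.29 to 10.93 in Pap, 10.14 to 11.48 in InvEE and 11.81 to 12.08 in WT, with Csf1r called lower in Pap minus WT (-2.14 ± 0.45). Of 3 measured neutrophil markers 1, S100a9, was called higher in Pap (33.3%, beside 9.65% of all genes against WT and 6.71% against InvEE). It was higher by 1.11 ± 0.24 over WT and 1.02 ± 0.24 over InvEE. The call over WT was kept in 23 of 23 alternatives and that over InvEE in 14. The neutrophil sum was 7.81 to 8.96 in Pap, 7.61 to 8.23 in InvEE and 7.64 to 7.93 in WT. The pericyte and macrophage sums were, like Gpha2, highest in WT on every array. Such sums weigh the brightest markers most, which in WT were Kcnj8 (mean 11.08) and Csf1r (11.77). Abcc9, Lyz2 and Adgre1, which was dim in all groups, were also lower in Pap and InvEE than in WT. Others went the other way in 1 or both groups: Mcam had 6.96 in Pap and 7.18 in InvEE, against 6.33 in WT. Cspg4 had 9.32 in InvEE but 7.98 in Pap, against 8.63 in WT. Rgs5 had 7.33 in Pap and 6.65 in InvEE, against 6.70 in WT. Cd68 had 7.93 in InvEE, against 7.23 in WT, and Mrc1 6.78 in Pap, against 5.31. Whether these cells play a part in the Gpha2 result was not tested. The part of keratinocyte and neutrophil RNA in the Ucn2 and Tac1 results was not tested either.

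The arrays of a group correlated with each other at 0.891 to 0.987 across probe sets. The 3′ minus 5′ signal of Gapdh, which grows as RNA is degraded or short, was 2.80 ± 0.66 in Pap, 2.15 ± 0.83 in InvEE and 1.84 ± 0.30 in WT (SD, n = 4 each). That of actin had the same order, at -0.12 ± 0.24 in Pap, -0.30 ± 0.14 in InvEE and -0.47 ± 0.07 in WT. The part of RNA quality in the Pap differences was not tested. With the spike-in level as a covariate, Gpha2 in InvEE minus WT was -3.44, beside -3.04 without it.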

How the data were processed

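Per the labels' protocols, RNA from a Qiagen RNeasy kit went through a single NuGEN Pico amplification and was labelled with biotin. The deposited table held log2 values made by the authors, 1 per probe set and array, between 2.08 and 14.96. limma is named in the submitters' processing notes. How their background was corrected is not given in the sources used here. Quartiles of the arrays spanned up to 0.284, so quantile normalisation was added. Each gene was represented by its brightest single-symbol probe set (mean of the 12 arrays). One model with 3 group means was fitted with limma 3.58.1 in R 4.3.3 (lmFit, eBayes), two-sided, with Benjamini-Hochberg adjustment over 18193 genes, and was tested on simulated data. Precision is limited by there being 4 arrays a group.

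The members, the gene lists and the rules for naming genes were chosen with earlier results of these data known. Named were all family genes, up to 5 called genes per other list and comparison by size, the 3 brightest genes of 4 lists, and the 5 nearest profiles of each member. Probe sets with several symbols or none were left out. Alternatives covered scaling, replicate block, spike-in level, array weights, probe set choice, dim genes, samples in the fit and each array left out.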

Additional observations from a re-analysis of the deposited data

Results flagged for a closer look

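In 10 of 162 groups of 4 arrays, 1 array stood further from the others than Dixon's critical value for 4 samples allows, where chance gives about 1 in 20. None of the flagged groups belonged to Ucn2, Tac1 or Gpha2. Cpe was at 9.39 on WT array 4 and at 10.57 to 10.82 on the other WT arrays. Qpct was at 7.35 on Pap array 4 and at 9.25 to 9.37 on the others, and Anpep was at 8.79 on Pap array 4 and at 9.93 to 10.16 on the others. Sik1 was at 11.31 on WT array 4 and at 10.55 to 10.61 on the others. Pap array 4 and WT array 4 also had the lowest array weights, 0.178 and 0.284.

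Among the InvEE arrays, array 3 stood apart for Furin (11.05, others 9.90 to 10.02), Adm (13.09, others 12.81 to 12.84) and Calcrl (7.03, others 7.51 to 7.55). InvEE array 1 stood apart for Npr2 (10.79, others 10.54 to 10.55) and Pth1r (9.73, others 10.07 to 10.08), and InvEE array 4 for Tacr1 (6.59, others 6.89 to 6.94).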

How the results depend on the processing

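Ucn2 in Pap minus WT lay between 4.74 and 5.13 under the 23 alternatives (4.74 to 5.10 with 1 array left out), Gpha2 in InvEE minus WT between -3.44 and -2.77 (-3.26 to -2.77) and Gpha2 in Pap minus WT between -3.37 and -2.84. Tac1 in Pap minus WT lay between 3.80 and 4.31 with 1 array left out and was 2.28 where its probe sets were averaged. No call changed direction under these alternatives. Counts of calls moved more. Genes called in InvEE minus WT, 97 by default, were 62 on deposited values, 60 with arrays centred on medians, 0 with the spike-in level as a covariate (limma, 2206 at an unadjusted p under 0.05), 839 with array weights, 54 with the probe set of largest variance and 228 with averaged probe sets. They were 0 to 249 with 1 array left out (0 without InvEE array 1 or 2 or WT array 1, with 2222, 1967 and 2358 at an unadjusted p under 0.05; 249 without Pap array 4). In Pap minus InvEE they were 1221 by default, 3287 after a shift by ribosomal protein genes, 259 with the spike-in level, 2813 with array weights, 2518 over every probe set and 578 to 1581 with 1 array left out. In Pap minus WT they were 1756 by default, 3444 over every probe set, 1094 with only the 8 arrays compared and 1259 to 1792 with 1 array left out. Peptide list genes called were 29, 2 and 24 in Pap minus InvEE with the ribosomal shift, the spike-in level and array weights (8 to 16 with 1 array left out), 9 and 1 in InvEE minus WT with array weights and averaged probe sets (0 to 2), and 12 to 23 in Pap minus WT with 1 array left out. The ribosomal shift moved the median of all genes by 0.21, -0.19 and 0.39 in Pap minus WT, InvEE minus WT and Pap minus InvEE, and the share of calls that were higher to 69.5%, 27.9% and 90.6%, beside 50.3%, 48.5% and 54.7% by default. Centring on medians gave 66.8% in Pap minus InvEE. The causes were not tested, except that over every probe set more features were tested.

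With the replicate number as a block, Ucn2 stayed at 4.92, Tac1 at 4.02 and Gpha2 at -3.04, while the genes called were 1551, 57 and 1039 in Pap minus WT, InvEE minus WT and Pap minus InvEE, and 15 peptide list genes were called in Pap minus WT. Of 12 same-numbered pairs, 2 correlated above 0.1 (-0.0943 to 0.177 over all pairs), and 6 of 12 arrays correlated best with their own number. Both pairs above 0.1 were Pap with WT, at 0.161 on array 3 and 0.177 on array 4. Array 2 had 0.083 and array 1 had 9.51e-05. The spike-in levels of Pap and WT also had the same order by number. These values do not settle whether Pap and WT arrays are paired, and the default fit treated the numbers as unpaired. Of 6084 values of 89 other named genes, 5747 kept their side of the threshold, 271 lost a call and 66 gained one, and 189 values that were not called changed sign. Dim group means limit the fold sizes of Ucn2 and Tac1.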
